A study of Mus musculus with 2 samples.

Results

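The genes described here are the aminoacyl-tRNA synthetases, taken as the 37 protein-coding rows of a mouse read count table whose gene name has the form of a synthetase symbol (a capital letter followed by ars or ars2, or Eprs, Farsa or Farsb), of 35275 rows in all. By textbook knowledge 18 of them encode cytosolic enzymes or subunits, 17 encode mitochondrial enzymes, and Gars and Kars encode enzymes that serve both compartments. The table came from TEa cells sorted from spleen, which are CD4 T cells of C57BL/6 strain with a transgenic receptor for a peptide of the I-E alpha chain, with 1 library in each of 2 groups. In the exhausted group the cells had been transferred into CB6F1 mice, which are a BALB/c by C57BL/6 cross and carry the antigen in their own cells. In the effector group they had been transferred into wild-type C57BL/6 mice that received BALB/c skin. The study compared abundant with moderate antigen, and recipient strain and skin graft differ between the groups along with it, so these cannot be told apart. The sources used here do not give age, sex, time after transfer or the number of mice behind a library.

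Each synthetase joins an amino acid to its tRNA, and the charged tRNA then delivers that amino acid to the ribosome. Mammalian cells read their nuclear messages with a cytosolic set of enzymes and the few messages of mitochondrial DNA with a separate set, which is encoded in the nucleus and imported. Several cytosolic enzymes sit together in the multisynthetase complex on scaffold proteins. Uncharged tRNA activates the kinase GCN2, which slows translation and raises the transcription factor ATF4, and ATF4 is known to induce many cytosolic synthetase genes. T cells that meet antigen take up more amino acids and make more protein, which places these genes among those of general interest in activated cells.

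The exhausted library held 8508129 counted reads and the effector library 7844445. Both had the reads of CD4 T cells, with 15463 and 9272 reads of Cd4 and 11432 and 7624 of Cd3e in the exhausted and the effector library, while Lat had 2963 and 5681 and Cd8a and the B cell gene Ms4a1 had 0 reads in each library. Marker genes of other spleen cells were few. In the exhausted and the effector library they summed to 2.35 and 2.55 RPM (reads scaled to the library total) for B cells (4 genes), 23.3 and 10.3 for myeloid cells (4 genes, of which Itgam gave 183 and 22 reads and Lyz2 gave 10 and 37), and 26.9 and 5.23 for NK cells (2 genes, Klrb1c with 229 and 36 reads, Ncr1 with 0 and 5). The Cd8b1 gene had 81 and 164 reads, and 3 erythroid genes summed to 1.18 and 10.6 RPM. The summed levels in RPM were 2.35 and 5.99 for 2 plasma cell genes, 1.41 and 2.17 for 3 dendritic cell genes, and 0.35 and 1.27 for 2 platelet genes, with Sdc1 and Siglech at 0 in each library. Their part in the results below was not tested. With 1 library per group there is no check by replicates, and p-values are not given. Every ratio below sets these libraries side by side, and its exact 95% interval covers counting error only. In bulk RNA, fewer cells of a kind and less RNA per cell cannot be told apart.

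Some cytosolic synthetase promoters carried the recognition sequence of ATF4, and the mitochondrial count was near the share over all genes. RefSeq promoters (build GRCm38.p6, 250 bases before to 50 after the start) were matched for 27 of the 37 genes by name and position. These held 11 of the 18 cytosolic genes, without Vars, and 14 of the 17 mitochondrial genes. The letters TGATGNAA, which ATF4 binds with C/EBP partners, were searched on both strands, and so was the E-box CACGTG, a site of factors such as MYC. The first was present in 4 of 11 cytosolic promoters (Aars, Iars, Tars and Yars), in Gars of the 2 genes that serve both compartments, and in 0 of 14 mitochondrial promoters, against 4.51% of the 27025 genes in the promoter table. The E-box was present in 4 of 11 cytosolic promoters (Aars, Farsb, Iars and Tars) and in 1 of 14 mitochondrial promoters (Ears2), against 8.09% of all genes. The mitochondrial counts of 0 and 1 were near these shares of all genes. No match of the one motif overlapped a match of the other. A match is a description of letters and not a bound site, and its absence says only that the letters are not in the window. Within the 250 bases before the start lie the TGATGNAA matches of Gars and Tars and 1 of those of Aars, which is not printed. These bases are printed for Gars and Tars, and for Lars2 (most reads) and Yars2 (ratio also above 0), 2 mitochondrial genes without a match. They lie at chr6:55037751-55038000 (plus strand), chr15:11399659-11399908 (minus strand), chr9:123366677-123366926 (plus strand) and chr16:16302715-16302964 (plus strand). All are written 5′ to 3′ along the gene's own strand, and capitals mark the matches.
Gars: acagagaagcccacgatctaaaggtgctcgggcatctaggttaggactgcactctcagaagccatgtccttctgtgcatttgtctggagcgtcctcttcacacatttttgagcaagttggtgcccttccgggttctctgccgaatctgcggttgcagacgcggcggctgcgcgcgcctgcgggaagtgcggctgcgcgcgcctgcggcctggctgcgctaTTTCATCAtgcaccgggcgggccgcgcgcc
Tars: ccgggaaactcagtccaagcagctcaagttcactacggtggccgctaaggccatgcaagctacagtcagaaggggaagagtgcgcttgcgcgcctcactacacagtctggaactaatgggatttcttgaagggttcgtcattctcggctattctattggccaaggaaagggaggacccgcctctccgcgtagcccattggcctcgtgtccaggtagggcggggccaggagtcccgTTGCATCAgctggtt
Lars2: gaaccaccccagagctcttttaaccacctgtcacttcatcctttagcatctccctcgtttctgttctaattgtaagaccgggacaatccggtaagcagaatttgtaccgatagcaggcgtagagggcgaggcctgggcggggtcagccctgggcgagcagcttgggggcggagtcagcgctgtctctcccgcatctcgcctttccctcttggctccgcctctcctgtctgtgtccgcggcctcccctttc
Yars2: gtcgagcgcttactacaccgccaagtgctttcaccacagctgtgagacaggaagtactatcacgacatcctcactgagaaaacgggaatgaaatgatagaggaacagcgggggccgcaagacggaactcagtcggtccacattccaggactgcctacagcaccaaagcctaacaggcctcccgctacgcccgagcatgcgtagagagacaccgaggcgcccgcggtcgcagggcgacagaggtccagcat

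In Gars the capitals begin 30 bases before the start and in Tars 15 bases before it, both as the reverse complement of the ATF4 letters. The 5 genes with a match had log2 ratios of exhausted over effector between -0.41 and 0.19, with a median of -0.10. The 22 matched promoters without it belonged to genes with log2 ratios between -0.86 and 0.71 and a median of -0.06. The 5 genes with an E-box had a median of 0.13 and those 22 without it a median of -0.11.

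No synthetase gene reached a 2-fold difference between the exhausted and effector libraries. Reads were scaled to effective library sizes, a gene counted as measured with at least 50 reads over both libraries, and it was called at 2-fold when the ratio reached that size and its interval excluded equality. All 37 synthetases were measured. Of them 0 were called higher and 0 lower in the exhausted library, where 6.62% of the 9999 measured genes were called higher and 7.09% lower. The valine enzyme gene Vars, at 1.98-fold, fell just short of that limit, and no member reached it. With DESeq2 size factors in place of the scaling used here Vars was at 2.02-fold and was called. At a limit of 1.5-fold, Vars and Ears2 were called higher and Wars2 lower, 2 and 1 of 37, where 13.6% of measured genes were called higher and 13.6% lower. Among the 6143 genes with at least 500 reads, 8.27% were called at 2-fold in either direction. The 26 synthetases at that depth had 0 calls. The median of the absolute log2 ratio was 0.20 over the 37 synthetases and 0.32 over all measured genes. As a median of signed values, the synthetases stood at -0.04 and all measured genes at -0.01, with 17 synthetases above 0 and 20 below.

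**Figure D1:**
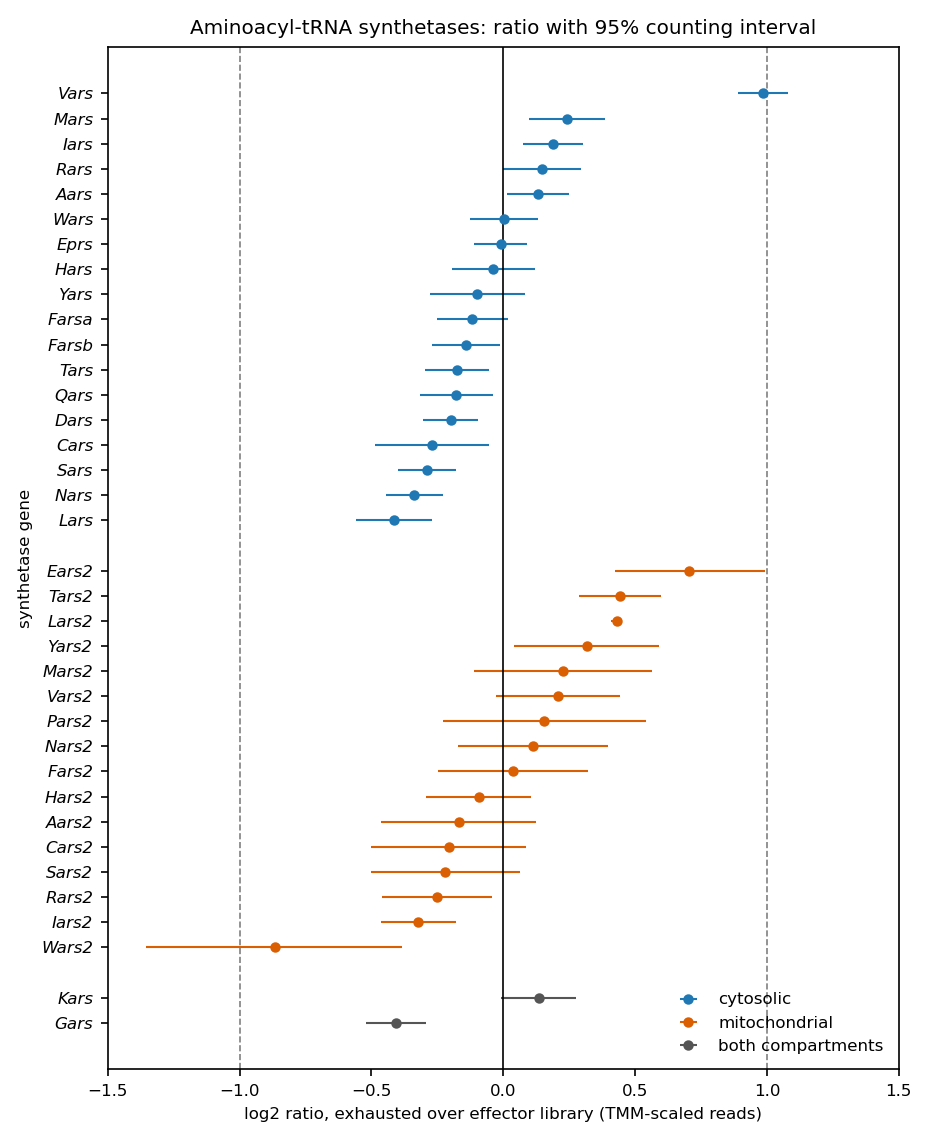
Log2 ratio of exhausted over effector library for 36 of the 37 synthetase genes (x axis), by compartment, with the exact 95% counting interval as bars and dashed lines at a 2-fold difference. Vars at 0.98 and Wars2 at -0.86 lie farthest from 0, and no point lies beyond a dashed line.

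Log2 ratios below 0 were more frequent among cytosolic than among mitochondrial synthetases. Of 18 cytosolic genes 12 had a log2 ratio below 0 and 6 above it, with a median of -0.11, and the interval lay wholly below equality for 8 and wholly above it for 4. Of 17 mitochondrial genes 7 were below 0 and 10 above it, with a median of 0.11, and the interval lay wholly below equality for 3 and wholly above it for 4. Over all 9999 measured genes 50.5% had a log2 ratio below 0, and the interval lay wholly below equality for 31.9% and wholly above it for 30.9%. Of the cytosolic genes 44.4% had intervals wholly below and 22.2% wholly above, and of the mitochondrial genes 17.6% and 23.5%. The interval included equality for 6 cytosolic and 10 mitochondrial genes. These shares depend on read depth as well as on the ratio, and the compartments differ in depth. At least 500 reads were counted for all 18 cytosolic genes but for 6 of the 17 mitochondrial genes. The medians differed by 0.22 on the log2 scale, or by 0.18 without Lars2, mitochondrial minus cytosolic. The counting interval of a member extended by a median of 0.15 to either side, and no test of the difference can be made with 1 library per group. In summed reads the cytosolic genes had 20016 reads in the exhausted library and 18165 in the effector library, a log2 ratio of 0.02. The mitochondrial genes had 49390 and 34863 reads, a log2 ratio of 0.38, most of them from Lars2. Without Lars2 they had 4889 and 4423 reads and a log2 ratio of 0.03, so the log2 ratios of the summed reads then differed by 0.0045 between the compartments, against 0.36 with Lars2. Without Vars the summed log2 ratio of the cytosolic genes was -0.09.

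Vars encodes the cytosolic enzyme for valine (ENSMUSG00000007029, mm10 chromosome 17, 35000987 to 35016322). It had 2903 reads in the exhausted library and 1352 in the effector library, which was 1.98-fold higher in the exhausted library (1.85 to 2.11). Its log2 ratio of 0.98 stood apart from those of the other 17 cytosolic genes, which ran from -0.42 to 0.24. Its mitochondrial counterpart Vars2, also on chromosome 17, had 342 and 273 reads, a 1.15-fold ratio (0.982 to 1.36) that did not exclude equality. Within 50 kb of Vars lie Hspa1b and Hspa1a, which encode inducible heat shock chaperones, with 1397 and 63 reads of Hspa1b (20.4-fold higher in the exhausted library) and 235 and 11 of Hspa1a. 1110038B12Rik, on the far side of these, had 40 and 19 reads (1.94-fold, log2 interval 0.13 to 1.83) and was called higher at 1.5-fold. Lsm2, which lies between the chaperone genes and Vars and encodes an RNA-binding protein, had 362 and 240 reads (1.39-fold), and Clic1 on the other side of Vars had 3651 and 3976 (0.846-fold). The part of this neighbourhood in the count of Vars was not tested.

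The enzymes of the multisynthetase complex lay on each side of equality between the exhausted and effector libraries. None reached 1.5-fold, where 13.6% of all measured genes were called in each direction. Its 8 synthetases had log2 ratios from -0.42 to 0.24 with a median of 0.06, 4 above 0 and 4 below. The interval lay wholly above equality for 2 and wholly below it for 3. The median absolute log2 ratio was 0.18, against 0.14 for the cytosolic genes outside the complex. Mars, for methionine, had 896 and 699 reads (1.18-fold, 1.07 to 1.31) and Iars, for isoleucine, 1411 and 1140 (1.14-fold, 1.05 to 1.23). Rars, for arginine, had 812 and 676 reads (1.11-fold, 0.998 to 1.23) and Kars, for lysine in both compartments, 887 and 745 (1.10-fold, 0.994 to 1.21). These 4 were the complex members with more scaled reads in the exhausted library. Eprs, a fused enzyme for glutamate and proline, had 1660 and 1541 reads (0.993-fold, 0.926 to 1.06), and with DESeq2 size factors its log2 ratio was 0.02 and so above 0. Qars, for glutamine, had 824 and 859 reads (0.884-fold, 0.803 to 0.974), and Dars, for aspartate, 1449 and 1533 (0.871-fold, 0.810 to 0.937). Lars, for leucine, whose product is also known as a leucine sensor for the kinase mTORC1, was lowest of the complex, with 716 and 880 reads (0.750-fold, 0.678 to 0.829).

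The scaffolds of the complex differed among themselves. Of its 3 scaffold genes, Aimp1 had 175 and 235 reads (log2 ratio -0.54, -0.83 to -0.25) and Aimp2 had 127 and 163 (-0.48, -0.82 to -0.13). Eef1e1, the scaffold also called AIMP3, had 360 and 294 reads (0.17, -0.05 to 0.40). None of the 3 was called at either limit, and their median log2 ratio was -0.48. Of all measured genes 6.62% were called higher and 7.09% lower at 2-fold, and 13.6% in each direction at 1.5-fold. Scaffold and enzyme genes of the complex thus had medians on opposite sides of 0, with 3 genes in the smaller set.

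The cytosolic synthetases outside the complex had a median log2 ratio of -0.12 over 11 genes, 8 of them below 0. Nars, for asparagine, had 1262 and 1469 reads (1.26-fold lower in the exhausted library, 1.17 to 1.36). Sars, for serine, had 1280 and 1441 reads (1.22-fold lower, 1.13 to 1.32), and Cars, for cysteine, 337 and 375 (1.21-fold lower, 1.04 to 1.40). Tars, for threonine, had 1091 and 1136 reads (1.13-fold lower, 1.04 to 1.23). These were the largest differences on the lower side among these 11 genes, which leave out Gars. None reached 1.5-fold, where 13.6% of all measured genes were called lower. The phenylalanine enzyme is built from the products of Farsa and Farsb, and its subunits were alike, with 915 reads of Farsa in each library (log2 ratio -0.12) and 967 and 983 of Farsb (-0.14). Yars, for tyrosine, had 515 and 508 reads and Hars, for histidine, 690 and 653, and both intervals included equality. Aars, for alanine, had 1286 and 1083 reads (1.09-fold higher, 1.01 to 1.19). Wars, for tryptophan, which interferon gamma is known to induce, had 1002 and 922 reads, a log2 ratio of 0.0024 (-0.13 to 0.13).

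Gars, which makes the glycine enzyme of both compartments, had 1119 reads in the exhausted library and 1367 in the effector library. It was 1.33-fold lower in the exhausted library (1.22 to 1.44), near Lars, and on the opposite side from Kars.

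Mitochondrial synthetases had log2 ratios on each side of 0 that reached farther than those of the cytosolic genes other than Vars. Their log2 ratios ran from -0.86 to 0.71, on lower counts. Ears2, the mitochondrial glutamate enzyme (ENSMUSG00000030871, mm10 chromosome 7, 122037213 to 122067263), had 285 and 161 reads and was 1.63-fold higher in the exhausted library (1.34 to 1.99). Wars2, the mitochondrial tryptophan enzyme (ENSMUSG00000004233, chromosome 3, 99141068 to 99239186), had 59 and 99 reads and was 1.82-fold lower (1.31 to 2.56). It was the least read synthetase in the table, and its interval was the widest. Tars2, for threonine, had 824 and 559 reads (1.36-fold higher, 1.22 to 1.52) and Yars2, for tyrosine, 262 and 194 (1.24-fold higher, 1.03 to 1.51). Iars2, for isoleucine, had 756 and 871 reads (1.25-fold lower, 1.13 to 1.38) and Rars2, for arginine, 360 and 395 (1.19-fold lower, 1.03 to 1.38). With Lars2 these were the 7 mitochondrial genes whose intervals excluded equality.

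For the remaining 10 the interval included equality. Those above 0 included Mars2 (170 and 134 reads in the exhausted and effector library), Vars2, Pars2 (128 and 106), Nars2 (224 and 191) and Fars2 (219 and 197), for methionine, valine, proline, asparagine and phenylalanine. Those below 0 were Hars2 (428 and 421), Aars2 (190 and 197), Cars2 (189 and 201) and Sars2 (204 and 219), for histidine, alanine, cysteine and serine. Their log2 ratios lay between -0.22 and 0.23. A difference smaller than these intervals was not detectable at this depth.

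Ears2 lies head to head with Ubfd1. Their annotated starts lie 88 bases apart, and the genes share 89 exon bases. Ubfd1 had 1286 reads in the exhausted library and 628 in the effector library, 1.89-fold higher in the exhausted library, and no other measured gene within 50 kb of Ears2 was called at 1.5-fold. Whether counting used strand is not stated, so reads in the overlap cannot be assigned to either gene, and its part in the ratio of Ears2 was not tested. The overlap covers 1.73% of the annotated exon bases of Ears2. In all, 10 synthetases start within 1000 bases of a coding gene on the other strand in GENCODE M21, counting Hars and Hars2, which face each other, as 2. Rars2 and its partner Orc3, a gene of the replication origin complex, were likewise close, with log2 ratios of -0.25 and -0.28. Sars2 (-0.22) and its partner Mrps12 (0.07), a gene of the mitochondrial ribosome, lay on opposite sides of 0.

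Exons of some synthetase genes overlap exons of other genes, which can leave their counts uncertain. In GENCODE M21, Fars2 shares 501 exon bases on the other strand with Nrn1, which encodes neuritin, a secreted or membrane-anchored protein. The coding transcripts of Fars2 share no stretch of 31 bases with Nrn1. M21 ends Fars2 at 36726280, while the counted gene ends at 36537592, so this overlap may lie outside the counted gene. Nrn1 had 1685 reads in the exhausted library and 25 in the effector library, a 62.1-fold ratio, while Fars2 had 219 and 197. Iars2 shares 2034 exon bases, 22.9% of its own, with Rab3gap2 on the other strand, which had 696 and 519 reads (log2 ratio 0.31) where Iars2 stood at -0.32. Mars shares 68 exon bases with Ddit3, which encodes the stress factor CHOP and had 157 and 169 reads. Cars2 shares 422 exon bases with Naxd (280 and 299 reads) and Farsb 248 with Sgpp2 (10 and 28 reads), each on the other strand. Iars shares 767 stretches of 31 bases with the pseudogene Gm4849, which had 1 and 0 reads. Aars shares 1326 exon bases on its own strand with Exosc6, which was not analysed here. How reads in these stretches were assigned is not stated, and their part in the ratios was not tested.

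Lars2, the mitochondrial leucine enzyme (ENSMUSG00000035202, chromosome 9, 123366940 to 123462664), had 44501 reads in the exhausted library and 30440 in the effector library, 1.35-fold higher in the exhausted library (1.33 to 1.37). That was 44501 of the 71412 synthetase reads in the exhausted library and 30440 of 55140 in the effector library. Of the 4527 distinct stretches of 31 bases in its coding transcripts, 42 occur in transcripts of another gene. Of these 26 occur in AA474408, which had 35 and 22 reads. Gm15564, which had 658 and 418 reads (log2 ratio 0.54, 0.36 to 0.72), holds 22. Both genes hold them in the same orientation as Lars2. Where along Lars2 the reads fall cannot be seen in a table of gene counts, and how much of the count is message of the enzyme was not tested.

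Per unit of length, cytosolic enzymes were at higher levels than mitochondrial enzymes in both libraries. Levels are in RPKM, computed here from the scaled reads and the deposited gene length. The cytosolic genes had a median of 40.5 in the exhausted library and 40.7 in the effector library, and ranged from 12.3 to 82.5 and from 14.8 to 89.9. The mitochondrial genes had medians of 11.0 and 8.82, or 10.0 and 8.34 without Lars2. Without Lars2 the highest level of a mitochondrial gene in the exhausted library was 29.1, for Tars2, and in the effector library 27.0, for Rars2. At the low end, Wars2 stood at 1.57 and 2.86 and Mars2 at 1.77 and 1.51, and Mars2 has a deposited length of 11294 bases, the longest of the members. Lars2 stood at 1347 and 1000.02.

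Vars changed place most in the order of levels, and no other synthetase differed by more than 4 ranks. In the exhausted library Lars2 was followed by Vars (82.5), Dars (78.3), Nars (56.3), Farsb (55.8) and Gars (55.0). In the effector library it was followed by Dars (89.9), Gars (72.9), Nars (71.2), Farsb (61.6) and Tars (54.9), and Vars held rank 10 at a level of 41.7, against rank 2 in the exhausted library. Among the cytosolic genes Cars was lowest in each library, at 12.3 and 14.8. Genes next to each other in the middle of the order, such as Wars, Hars and Eprs between 40.2 and 41.9 in each library, have no order that can be read from 1 library per group.

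**Figure D2:**
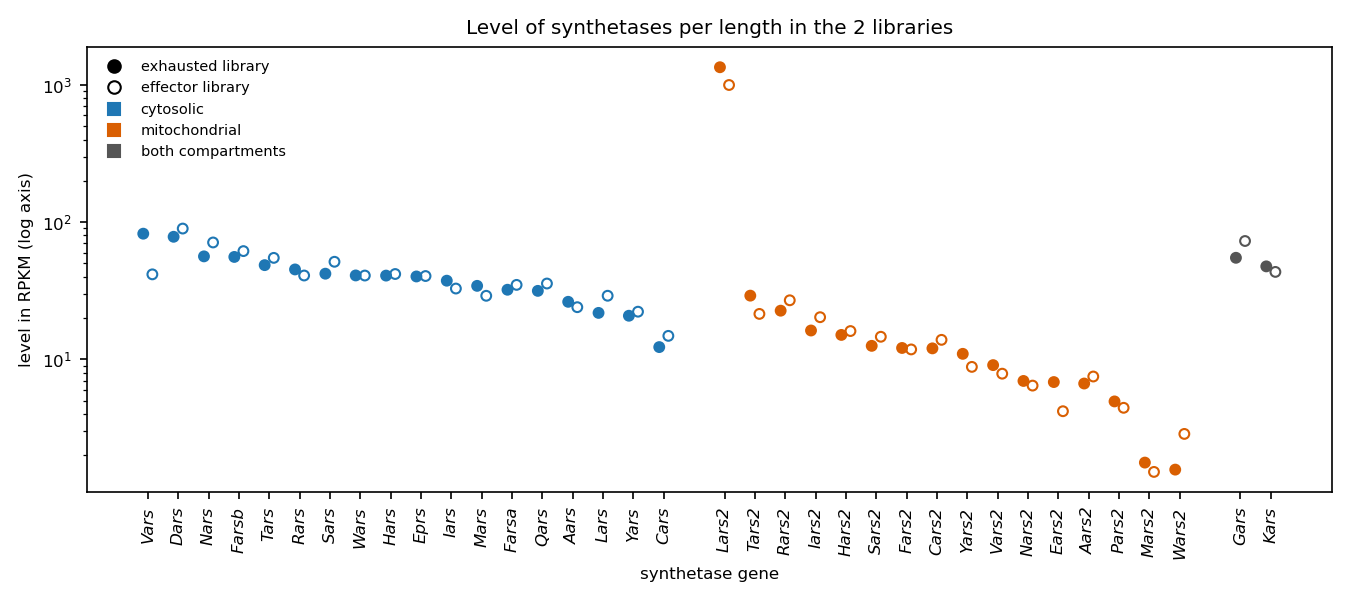
Level of 36 of the 37 synthetases in RPKM (log axis), filled circles for the exhausted library and open circles for the effector library, coloured by compartment and ordered by the exhausted library within it. Lars2 lies at 1347 and 1000.02, above every other member, and Vars shows the widest gap of the cytosolic genes.

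Cytosolic and mitochondrial enzymes of the same amino acid differed in both directions. For 17 amino acids a mitochondrial gene could be set beside a cytosolic gene, giving 18 comparisons, since phenylalanine has 2 cytosolic subunits and Eprs stands for glutamate and proline. The difference of their log2 ratios does not depend on how the libraries are scaled, and its exact conditional 95% interval again covers counting error only. The mitochondrial gene had the larger ratio in 11 comparisons and the smaller in 7, and the interval lay wholly above 0 for 6, wholly below for 4, and included 0 for 8. The median difference was 0.11.

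Leucine and tryptophan stood at opposite ends. Lars2 exceeded Lars by 0.85 (0.70 to 0.99), Ears2 exceeded Eprs by 0.72 (0.41 to 1.02) and Tars2 exceeded Tars by 0.62 (0.42 to 0.82). The comparisons for asparagine (0.45) and tyrosine (0.41) also had intervals above 0. At the other end, Wars2 minus Wars was -0.87 (-1.38 to -0.37), Vars2 minus Vars -0.78 (-1.03 to -0.52), Iars2 minus Iars -0.51 (-0.70 to -0.33) and Rars2 minus Rars -0.40 (-0.66 to -0.14). Members of the multisynthetase complex thus occur on each side. In levels per length, the cytosolic gene was higher in 17 of the 18 comparisons in each library, leucine being the exception. For leucine, both the ratio and the level rest on the Lars2 count. How much of that count is message of the enzyme was not tested. Leucine aside the ratio was narrowest for cysteine (1.02 and 1.07). The median ratio of cytosolic over mitochondrial level was 3.65 in the exhausted library and 3.36 in the effector library. It was widest for tryptophan in the exhausted library (26.0) and for methionine in the effector library (19.2).

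**Figure D3:**
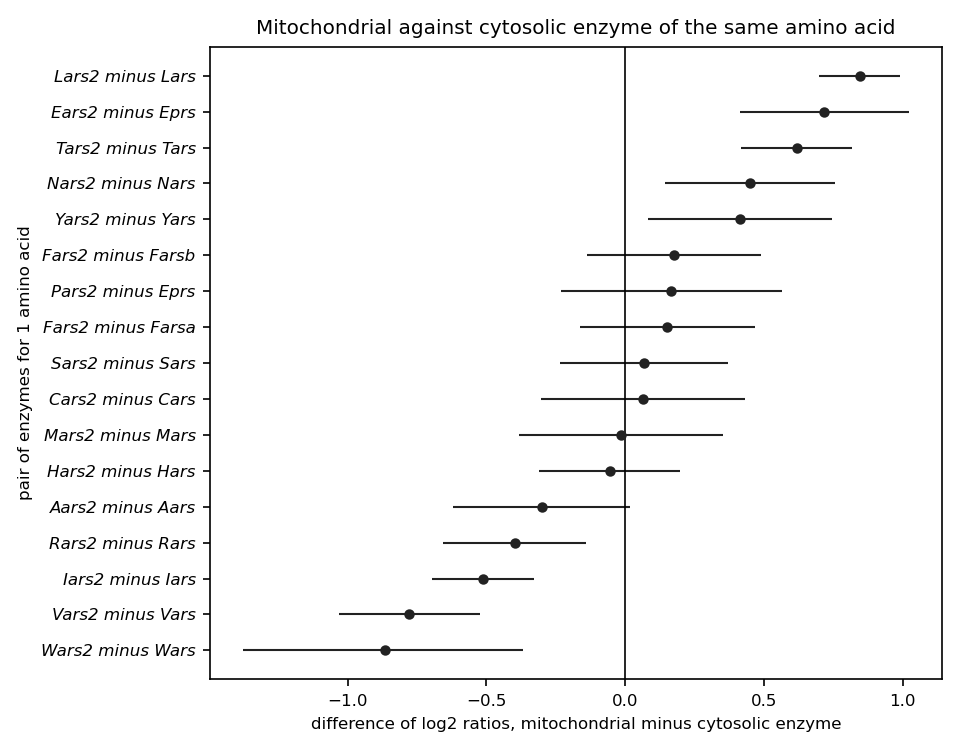
Difference of log2 ratios (exhausted over effector), mitochondrial minus cytosolic gene, for 17 of the 18 pairs of genes that serve the same amino acid, with the exact 95% counting interval as bars. Lars2 minus Lars is highest at 0.85 and Wars2 minus Wars lowest at -0.87, and 8 of these intervals include 0.

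The synthetases fall into structural classes that differ in the fold of the catalytic domain. The 18 genes of class I had a median log2 ratio of 0.07, 10 above 0 and 8 below, and the 18 of class II had a median of -0.11, 7 above and 11 below. Eprs holds a domain of each class and was left out of this count. All 3 genes past 1.5-fold, Vars, Ears2 and Wars2, are of class I, 2 of its 18 genes higher and 1 lower. Over all measured genes 13.6% were called in each direction at that limit. Class II ran from -0.41 to 0.44.

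Genes that act beside the synthetases were mostly not called at 2-fold, which holds for most measured genes too. Of all measured genes 6.62% were called higher and 7.09% lower at 2-fold, and 13.6% in each direction at 1.5-fold. Of the 4 genes that complete mitochondrial glutaminyl-tRNA by amidation or formylate the initiator tRNA, 0 were called at either limit, with Qrsl1 at a log2 ratio of -0.30 (214 and 243 reads), Mtfmt at 0.25 (361 and 280) and Gatc at -0.25 (203 and 222). Of 5 relatives and proofreading genes 4 were measured, with a median of -0.51. Prorsd1, a relative of the editing domain of prolyl-tRNA synthetase, was called lower at 1.5-fold (140 and 209 reads, -0.70, -1.01 to -0.38), 1 of 4 where 13.6% of all measured genes were. Dtd2, a D-aminoacyl-tRNA deacylase, stood at -0.52 (84 and 111 reads) and the threonyl synthetase relative Tarsl2 at -0.49 (67 and 87 reads). Elongation factors, which carry charged tRNA to the ribosome or move it along, had medians of 0.07 in the cytosol (5 genes, 0 called) and -0.11 in mitochondria (4 genes). In the cytosolic list Eef1g stood at 0.29 (2270 and 1709 reads), Eef1a1 at 0.07 (25076 and 22011) and Eef2 at 0.07 (8077 and 7104). In the mitochondrial list Gfm2, a factor of ribosome recycling, was called higher at 1.5-fold (748 and 427 reads, 0.69, 0.52 to 0.87). That was 1 of 4, where 13.6% of all measured genes were called higher. Tsfm stood at -0.42 (165 and 203) and Gfm1 at -0.15 (485 and 497).

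The list of ATF4 and genes it is known to induce had 7 of 10 genes measured, 1 called higher at 2-fold (6.62% of all measured genes), 0 lower (7.09%), 2 higher at 1.5-fold (13.6%), and a median log2 ratio of 0.05. Atf4 itself had 865 and 768 reads (0.05, -0.09 to 0.20). Sesn2, an inhibitor of mTORC1 signalling, had 227 and 89 reads and was called higher (2.35-fold, log2 ratio 1.23, interval 0.87 to 1.60). Psat1, of serine synthesis, was called higher at 1.5-fold only (1380 and 669 reads, 0.93), and Phgdh, which acts before it in the same pathway, stood at -0.42 (837 and 1032 reads). Asns, Trib3 and Chac1 were not measured, with 4 and 8, 17 and 26, and 0 and 0 reads. The genes of the sensor of uncharged tRNA had 0 of 4 called, with Gcn1l1, the partner of GCN2, at 0.51 (1592 and 1027 reads), Eif2s1 at -0.23 (1531 and 1659) and Eif2ak4, which encodes GCN2, at 0.21 (208 and 166).

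Amino acid transporters had the highest median of the neighbouring lists, 0.35 over 7 measured of 8 genes, with 1 called higher at 2-fold, 3 higher at 1.5-fold and 0 lower, where 6.62% of all measured genes were called higher at 2-fold and 13.6% in each direction at 1.5-fold. Slc38a1, a glutamine transporter, had 2629 reads in the exhausted library and 1089 in the effector library (2.23-fold higher, log2 interval 1.05 to 1.26). Slc1a5, an exchanger of neutral amino acids such as glutamine, had 7050 and 3302 reads (1.97-fold higher, log2 interval 0.92 to 1.04), and Slc7a1, a transporter of cationic amino acids, 497 and 252 (1.82-fold higher, log2 interval 0.64 to 1.09). All 7 measured transporters had log2 ratios above 0, where 49.45% of all measured genes did, and Slc1a4, with 0 and 8 reads, was not measured. The log2 intervals of Slc3a2 (-0.06 to 0.21) and Slc7a6 (-0.06 to 0.31) included equality.

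**Figure D4:**
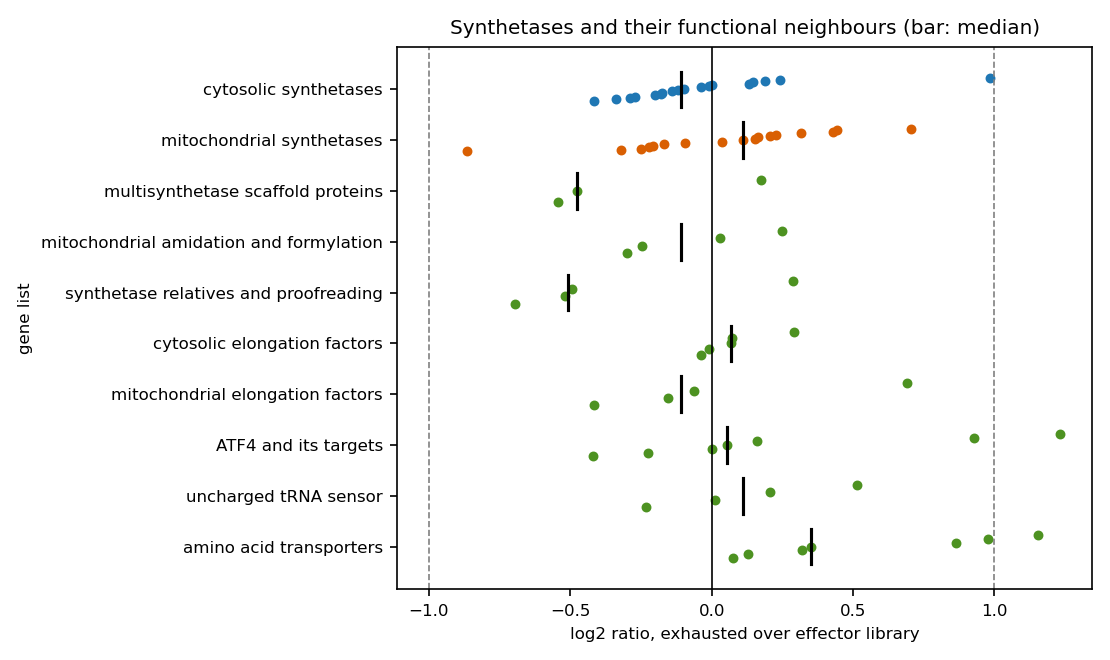
Log2 ratio of exhausted over effector library for each measured gene (points) of the cytosolic and mitochondrial synthetases and 8 lists of genes that act beside them, with the list median as a black bar and dashed lines at a 2-fold difference. Synthetase medians lie at -0.11 and 0.11, and the transporters have the highest median at 0.35.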

How the data were processed

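The deposited table, as the authors left it, gives raw counts of reads for each gene in the exhausted and effector columns. STAR 2.6 and mm10 are named in the submitters' processing notes. Per the labels' protocols the libraries came from a low-input total RNA kit. Such kits amplify cDNA, so intervals that take reads as independent may be too narrow. The sources used here name neither the counting program nor its strand setting. Of 35275 genes 17536 had 0 reads in both libraries.

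Counts were scaled by the trimmed mean of M-values over all genes (TMM, edgeR 4.0.16 in R 4.3.3), and 9999 genes had at least 50 reads. Intervals are exact Clopper-Pearson 95% intervals or, between genes, exact conditional intervals of the odds ratio (scipy 1.17.1). A library at 0 reads is set to a floor of 3. Alternatives were total counts, the upper quartile, DESeq2 1.42.0 size factors, TMM over protein-coding or measured genes, read minimums of 1 and 500, and other fold limits and summaries. Exon overlaps and transcripts come from GENCODE M21.

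The members and lists were chosen with earlier results of these data known. All members were described or counted, and of each neighbouring list the 3 measured genes with the largest absolute log2 ratio were named. Genes named beyond that were chosen after their values were seen: overlapping and neighbouring genes, Atf4, Slc3a2, Slc7a6, unmeasured genes and single markers. A few individual values are not reported here, while counts, sums and medians cover all 37 members.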

Additional observations from a re-analysis of the deposited data

How the results depend on the processing

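No paired analysis was possible because each group holds 1 library. With DESeq2 size factors 1 synthetase, Vars at 2.02-fold, was called higher at 2-fold in place of 0. With a limit of 1.5-fold 2 were called higher and 1 lower. By summed reads the mitochondrial log2 ratio was 0.38 in place of a median of 0.11, and the compartments differed by 0.36. Without Lars2, an alternative chosen after seeing the data, the difference was 0.0045 by summed reads, while that of the medians was 0.18 in place of 0.22. The other 45 values of the compartment medians, their difference and the counts under an alternative moved by no more than the median distance from a member's ratio to its counting limits, 0.15, or by less than 1.5 times for counts. Some of these could not move. Scaling cancels in the difference of medians, and all members had at least 50 reads, so a minimum of 1 changed nothing. All 18 cytosolic genes had at least 500 reads, so that minimum could not move their median. The counts of 0 at 2-fold could not rise under that minimum or when the whole interval had to lie beyond 2-fold. Counting Gars and Kars as cytosolic leaves the mitochondrial median as it is. Of 248 values of individual genes under another scaling or read minimum, 1 moved beyond its counting interval, Lars2 with DESeq2 size factors at a log2 ratio of 0.46. A read minimum leaves the ratio of a gene as it is, so the values under it could not move. No scaling shifted the median of the members by more than 0.03. With 1 library per group the spread between animals is unknown, and mitochondrial genes with few reads have wide intervals.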
